A study of Homo sapiens with 8 samples.

Results

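The 10 genes described here carry or lie downstream of the known driver lesions of uveal melanoma, the melanoma of the pigmented layer of the eye. They are the receptor gene CYSLTR2, the G alpha genes GNAQ and GNA11, the phospholipase gene PLCB4, the kinase gene PRKCE, the exchange factor genes RASGRP3 and TRIO, and the genes BAP1, SF3B1 and EIF1AX. They were chosen by name, for their known roles, from the 19952 gene symbols measured. RNA was sequenced from 2 cell lines, both described in the methods as uveal melanoma, in 8 libraries that form 4 groups of 2. The aim was to ask what changes when the level of the DNA cytidine deaminase APOBEC3B (A3B) is changed. In the 92.1 line, whose own A3B level is high, cells carrying a short hairpin RNA against A3B (shA3B) were set against control cells (shCtrl), which the methods describe as holding the empty vector. In the MEL290 line, whose own A3B level is low, cells overexpressing A3B from a lentiviral vector (A3B OE) were set against negative controls (NC). Both kinds of vector carry puromycin resistance, and neither the labels nor the methods say which hairpin was sequenced or whether the cells were pools or clones. The labels do not say that the replicates came from separate cultures, so the p-values below measure only the spread between these libraries, which may be technical.

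In melanocytes and uveal melanoma, signalling through the Gq class of G proteins starts at a receptor such as the leukotriene receptor CYSLTR2. The receptor loads the alpha subunit GNAQ or GNA11 with GTP, the alpha subunit switches on phospholipase C beta (PLCB4), and the diacylglycerol that the phospholipase releases recruits protein kinase C (PRKCE) and the RAS exchange factor RASGRP3, which leads to MEK and ERK. TRIO, an exchange factor of small GTPases such as Rac, carries a separate arm from the same alpha subunits towards the actin skeleton and YAP. Activating mutations fall in CYSLTR2, GNAQ, GNA11 or PLCB4, while a further mutation in BAP1, SF3B1 or EIF1AX usually accompanies them. The 92.1 line is known to carry an activating GNAQ mutation and MEL290 is known to lack mutations of GNAQ and GNA11. Alleles were not read here, because the values are gene-level FPKM, a fragment density scaled to transcript length and to the size of the library, which counts messenger RNA from every allele together and does not measure protein or activity.

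The library labels were checked on A3B and on markers of cell type. A3B stood at 34.1 ± 2.56 FPKM (SD, n = 2) in shCtrl and 2.18 ± 0.278 in shA3B libraries, and at 2.43 ± 0.341 in NC and 27.9 ± 0.644 in A3B OE libraries, as each label states. The 10 melanocyte markers summed to between 7549 and 9174 FPKM in the 92.1 libraries, where 10 of 10 reached 1 FPKM, but to between 39.5 and 45.5 FPKM in the MEL290 libraries, where 3 or 4 of 10 did. TYR, the enzyme that makes melanin, was listed at 0 in every MEL290 library. The 6 epithelial markers summed to between 3.27 and 4.52 FPKM in 92.1 and to between 1679 and 2581 FPKM in MEL290. The MEL290 sum was nearly all from the keratins KRT8 and KRT18, with KRT5 at 0 and EPCAM at no more than 0.0704 FPKM there. The 8 fibroblast markers summed to between 5.79 and 7.87 FPKM in 92.1 against between 67.7 and 88.9 FPKM in MEL290. COL1A1, PDGFRB and FAP made up nearly all of the MEL290 sum. LUM went the other way, from 4.43 FPKM in shCtrl to 0.0114 in NC, and COL1A2, COL3A1, DCN and THY1 were at no more than 0.277 FPKM in any library. Of the defining melanocyte markers of the labelled cell type, MEL290 thus had SOX10 at no more than 0.168 FPKM and TYR at 0, while MITF, the lineage factor, was reduced but present, at between 13.7 and 19.6 FPKM against between 67.0 and 81.4 FPKM in 92.1. GPR143 and RAB38 were likewise reduced but above 1 FPKM. The identity of the MEL290 line beyond these markers was not tested, and neither was the part of the marker differences in the differences between the lines below. The spacing of low FPKM values gave a rough depth of between 17400000 and 32400000 fragments a library.

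9 of the genes were clearly measured and CYSLTR2 was not. The plot of the 10 genes in each library shows that the values of these 9 lay apart between the lines.

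**Figure D1:**
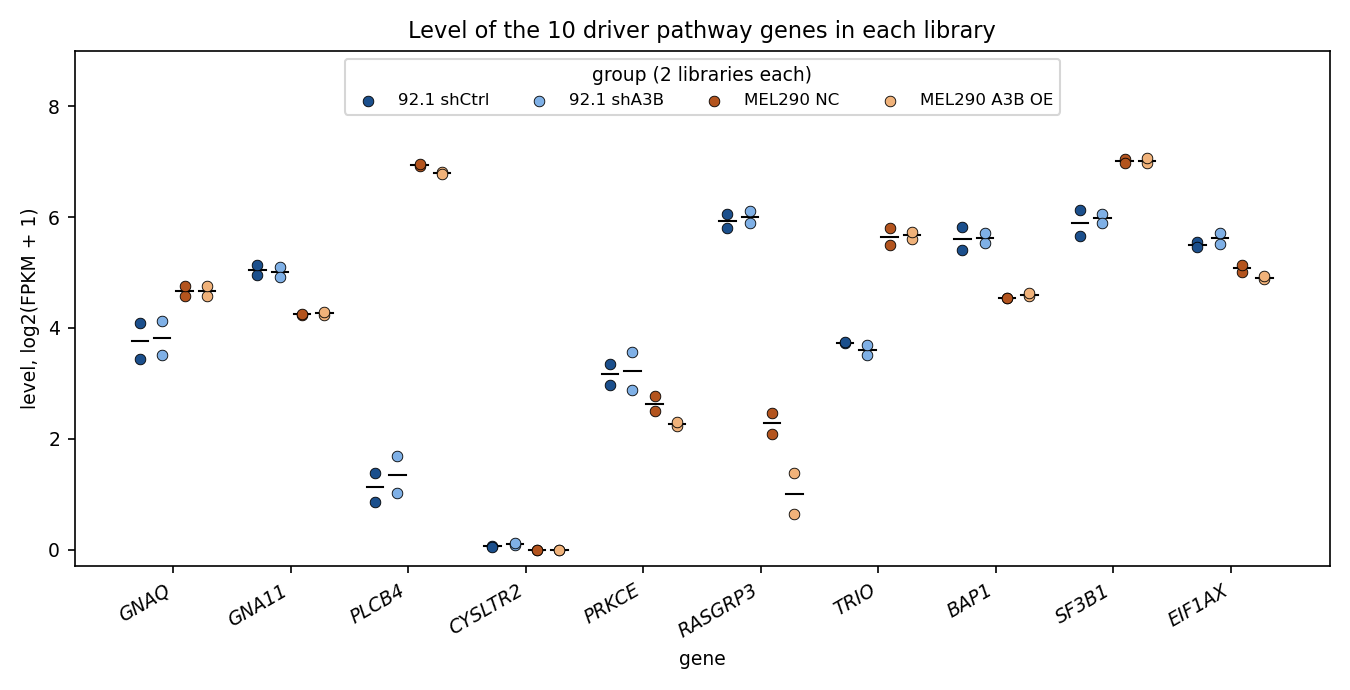
Level of each of the 10 genes, as log2(FPKM + 1), in the 8 libraries, with 1 point for each library and a black line at the mean of each group of 2. The blue 92.1 points and the orange MEL290 points lie apart for GNAQ, GNA11, PLCB4, PRKCE, RASGRP3, TRIO, BAP1, SF3B1 and EIF1AX, and CYSLTR2 lies near 0 in all 8 libraries.

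CYSLTR2 (chr13:48653711-48711226, plus strand, GRCh38), the receptor, was at 0.0437 and 0.0407 FPKM in shCtrl, 0.0648 and 0.0944 FPKM in shA3B, and listed at 0 in the 4 MEL290 libraries. At the rough depth above, the 92.1 values correspond to between 4.7 and 14 fragments a library and the MEL290 values to 0. The gene stayed under the filter of 1 FPKM in at least 2 libraries, so no difference between groups was tested. Its nearest relative CYSLTR1 did not exceed 0.0296 FPKM in any library, and ALOX5, the enzyme that starts leukotriene synthesis (named after its values were seen), was listed at 0 in all 8. Messenger RNA of both cysteinyl leukotriene receptors was thus at or near the limit of measurement in both lines.

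Between the control libraries of the lines, the other 9 genes all differed. Of 12352 genes tested with limma on log2(FPKM + 1), 73% were called at an adjusted p under 0.05 after Benjamini-Hochberg correction (33.7% higher in MEL290 and 39.3% lower), and 9 of the 9 genes tested were called, 4 higher in MEL290 (GNAQ, PLCB4, TRIO and SF3B1) and 5 lower (GNA11, PRKCE, RASGRP3, BAP1 and EIF1AX). With a background that high, the count itself says little of these genes, and the sizes carry the information. The median absolute log2 fold change was 1.07 over the 9 genes and 0.78 over all genes tested. The libraries of the groups did not overlap for 9 of 9 genes, against 87.3% of all genes. In each comparison a line is 1 cell line with its own vector, so line and construct cannot be told apart, and neither can fewer cells expressing a gene and less RNA per cell.

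A further comparison set the A3B OE libraries of MEL290 against the shA3B libraries of 92.1, which shares no library with the control comparison. There 72.7% of 12396 genes were called (33.4% higher and 39.3% lower in MEL290), with no overlap for 87%, and again 9 of the 9 genes were called, 4 higher and 5 lower. All 9 had the sign they had between the controls, and for all 9 the 4 libraries of 1 line lay apart from the 4 of the other. How many of all genes did the same was not counted, so neither count sets these 9 genes apart. Line and A3B construct cannot be told apart in that comparison. The plot of fold changes shows both line comparisons beside the effect of A3B within each line.

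**Figure D2:**
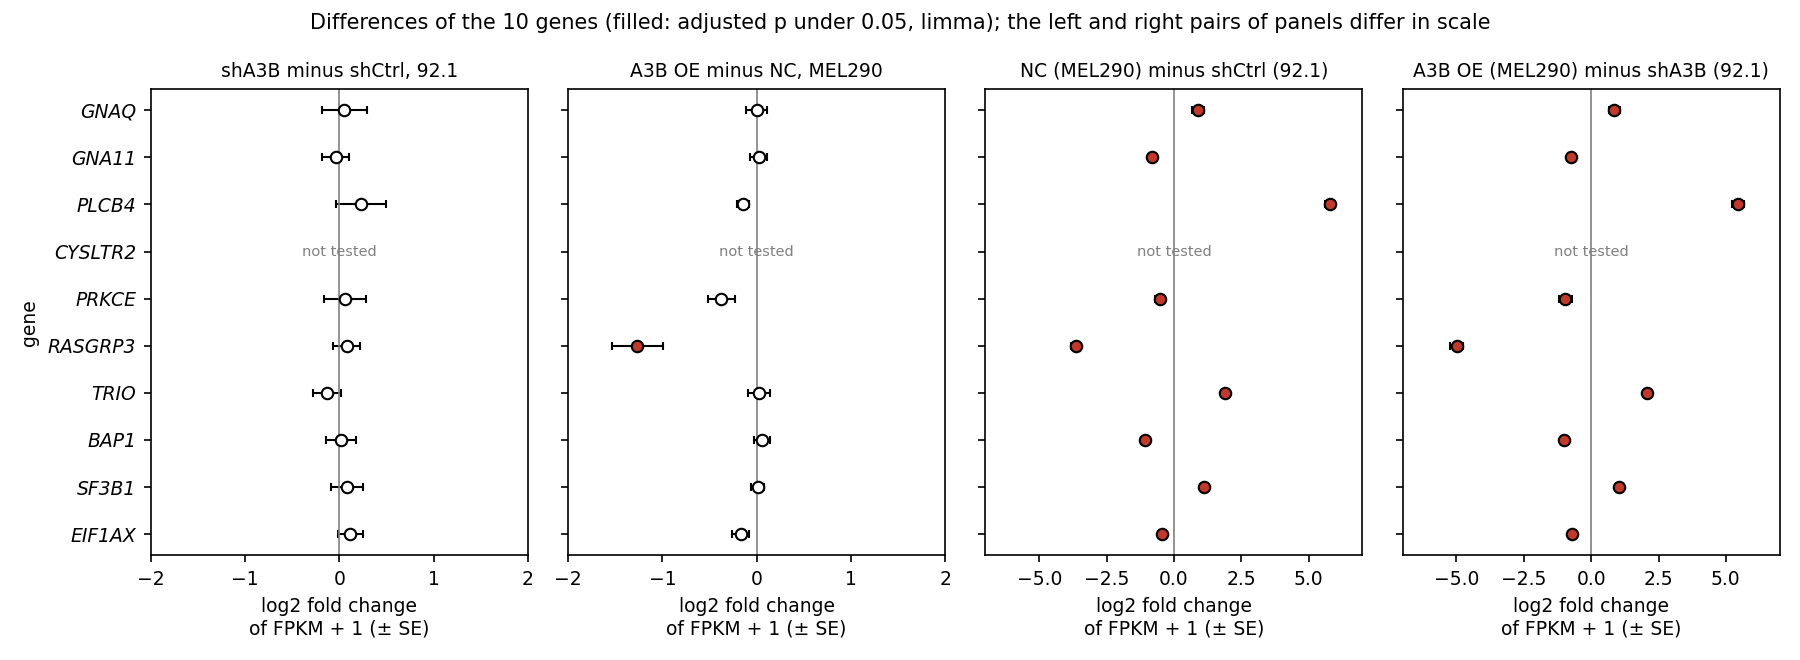
Log2 fold change of FPKM + 1 with its standard error for each gene in 4 comparisons, filled where the adjusted p was under 0.05, with the scale of the 2 line comparisons wider than that of the 2 A3B comparisons. In the line comparisons all 9 tested genes are filled, with PLCB4 far to the right and RASGRP3 far to the left, while in the A3B comparisons only RASGRP3 in MEL290 is filled.

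GNAQ and GNA11 encode the alpha subunits that couple receptors to phospholipase C beta, and either can carry the driver mutation. GNAQ (chr9:77716097-78031811, minus strand) was at 15.9 and 9.87 FPKM in shCtrl, 16.4 and 10.4 in shA3B, 22.9 and 26.2 in NC, and 22.9 and 26.2 in A3B OE libraries. All MEL290 values lay above all 92.1 values, with a ratio of the control means of 1.90 and a log2 fold change of 0.91 (SE 0.23, limma adjusted p = 0.014). In 92.1 the library numbered 1 was higher than the library numbered 2 by 1.61 times in shCtrl and 1.58 times in shA3B, a spread well above the 1.14 and 1.15 times in MEL290. Without the filter on low FPKM the adjusted p of GNAQ was 0.053, and 0.054 between the shA3B and A3B OE libraries.

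GNA11 (chr19:3094362-3123999, plus strand) went the other way, at 29.9 and 34.2 FPKM in shCtrl, 33.2 and 29.2 in shA3B, 17.8 and 18.1 in NC, and 17.9 and 18.6 in A3B OE libraries. Every 92.1 value lay above every MEL290 value, by a log2 fold change of -0.80 between the controls (SE 0.11, limma adjusted p = 0.0013). Family shares, here and below, pool the control and A3B-changed libraries of a line. GNAQ made up 29.1% ± 5.79 of the summed FPKM of both genes in the 92.1 libraries and 57.5% ± 1.59 in the MEL290 libraries (n = 4 each). The shares did not overlap, and an exact two-sided permutation test gave p = 0.029, the smallest that 4 libraries against 4 allow, or 0.036 adjusted over the 5 family shares tested. The sum, by contrast, ranged from 39.5 to 49.6 FPKM in 92.1 and from 40.7 to 44.8 FPKM in MEL290, which overlap. The coding sequences are alike, and how the quantification divided reads that match both is not given in the sources used here. The remaining Gq alpha genes were almost unmeasured, with GNA14 at no more than 0.0515 FPKM and GNA15 at no more than 0.564 FPKM.

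PLCB4 had the widest range of the 10 genes. It encodes a phospholipase C beta that GNAQ and GNA11 switch on directly (chr20:9067825-9504593, plus strand). Its level was 1.61 and 0.824 FPKM in shCtrl and 1.04 and 2.22 FPKM in shA3B, against 119.8 and 123.1 FPKM in NC and 110.8 and 109.2 FPKM in A3B OE libraries. The control means differed 99.7 times, a log2 fold change of 5.81 (SE 0.19, limma adjusted p = 8.8e-06) and the 113th largest absolute change of the 12352 tested. That ratio was 147.4 times without shCtrl replicate 1 and 75.3 times without shCtrl replicate 2. The means of the shA3B and A3B OE libraries differed 67.6 times, or 105.8 times without shA3B replicate 2 and 49.6 times without shA3B replicate 1. The fold is on FPKM + 1 in the test, which understates it for a gene this low in 92.1.

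The family as a whole changed its makeup. PLCB4 made up 6.49% ± 3.07 of the summed FPKM of PLCB1, PLCB2, PLCB3 and PLCB4 in the 92.1 libraries and 90.0% ± 1.83 in the MEL290 libraries (n = 4 each, exact permutation p = 0.029, adjusted p = 0.036). PLCB1 fell from 4.38 ± 0.691 FPKM in shCtrl to 0.0480 ± 0.0405 in NC (n = 2 each, log2 fold change -2.35, limma adjusted p = 5e-05), and PLCB2 from 4.58 ± 1.72 to 0.263 ± 0.198 (-2.12, limma adjusted p = 0.00063). PLCB3 stood at 12.8 ± 2.07 in shCtrl and 11.1 ± 0.639 FPKM in NC and was not called (-0.18, limma adjusted p = 0.31). PLCB3 was thus the main family member by FPKM in 92.1 and PLCB4 in MEL290, as the stacked plot of the families shows.

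**Figure D3:**
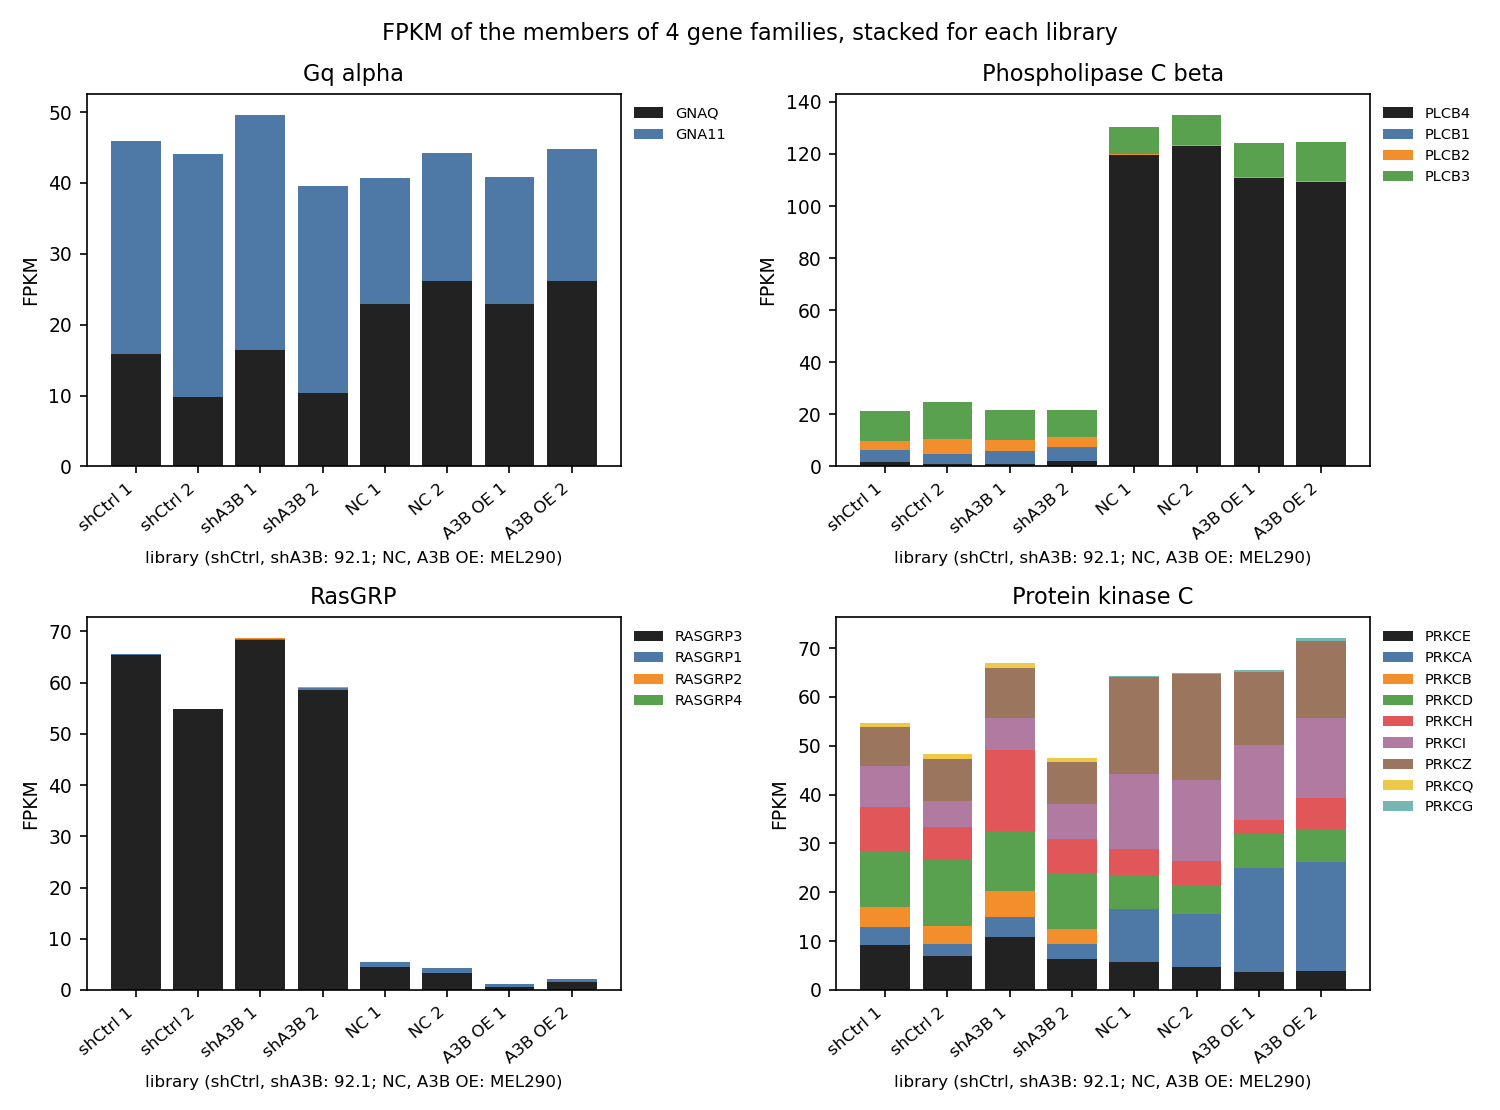
FPKM of the genes of 4 families, stacked for each of the 8 libraries on a linear axis from 0, with the member under study in black at the base of each bar. GNAQ and GNA11 trade places with a similar sum, PLCB4 fills 90.0% of its family in MEL290 and 6.49% in 92.1, RASGRP3 is nearly the whole of its family in 92.1, and PRKCE is a small share of protein kinase C in both lines.

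PRKCE encodes protein kinase C epsilon, a diacylglycerol-activated kinase that acts upstream of RASGRP3 in this tumour (chr2:45651345-46187990, plus strand). It was at 9.25 and 6.88 FPKM in shCtrl, 10.9 and 6.34 in shA3B, 5.81 and 4.68 in NC, and 3.67 and 3.94 in A3B OE libraries. The lowest 92.1 value exceeded the highest MEL290 value, but by little. The log2 fold change was -0.53 between the controls (SE 0.19, limma adjusted p = 0.045) and -0.96 between the shA3B and A3B OE libraries (SE 0.24, limma adjusted p = 0.012). The call between the controls was the weakest of the 9. It was lost with upper quartile scaling (adjusted p = 0.063), with a pseudocount of 0.1 (0.055), without the filter (0.098), with all 8 libraries in 1 fit (0.068), and without shCtrl replicate 1 (0.17) or NC replicate 2 (0.15), and the call between the shA3B and A3B OE libraries was lost without the filter (0.053).

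Several other protein kinase C genes had larger fold changes than PRKCE between the control libraries. PRKCA, a calcium-dependent isoform, rose from 3.12 ± 0.697 FPKM in shCtrl to 10.9 ± 0.118 in NC (n = 2 each, log2 fold change 1.53, limma adjusted p = 0.00046), and the atypical isoforms PRKCI and PRKCZ rose by 1.15 and 1.22 on the log2 scale. PRKCB, another calcium-dependent isoform, was at 4.19 and 3.59 FPKM in shCtrl and listed at 0 in both NC libraries, and PRKCD fell by 0.86 on the log2 scale. PRKCE was 15.2% ± 1.67 of the summed FPKM of the 9 protein kinase C genes in 92.1 and 6.83% ± 1.67 in MEL290 (n = 4 each, exact permutation p = 0.029, adjusted p = 0.036).

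RASGRP3 encodes the exchange factor that binds diacylglycerol and loads RAS with GTP, and it links mutant GNAQ or GNA11 to ERK in uveal melanoma (chr2:33436324-33564750, plus strand). It was the gene with the highest mean of the 10 in 92.1, at 65.5 and 54.8 FPKM in shCtrl and 68.4 and 58.6 FPKM in shA3B, where it overlapped SF3B1. In MEL290 it was the lowest of the 9 tested, at 4.54 and 3.26 FPKM in NC and 0.570 and 1.60 FPKM in A3B OE libraries. The control means differed 15.4 times (log2 fold change -3.65, SE 0.17, limma adjusted p = 2.6e-05), and the shA3B and A3B OE means 58.5 times (-4.99, SE 0.25, limma adjusted p = 1.9e-05). That ratio rests on low A3B OE values, and was 111.4 times without A3B OE replicate 2 and 39.7 times without A3B OE replicate 1. RASGRP3 held 99.6% ± 0.332 of the summed FPKM of the 4 RASGRP genes in 92.1 and 70.6% ± 12.3 in MEL290 (n = 4 each, exact permutation p = 0.029, adjusted p = 0.036). The MEL290 share pools a mean of 78.3% in NC and 62.9% in A3B OE libraries, so its SD also holds any difference between those groups. The rest of the family sum in MEL290 was mostly RASGRP1, an exchange factor known from T cells. It was at 1.05 ± 0.0851 FPKM in NC, so that no relative reached the level RASGRP3 had in 92.1.

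The RefSeq promoter windows of RASGRP3 are shown because it is the gene of the 10 that was called within a line as well as between the lines, and because 92.1 and MEL290 differ in melanocyte markers. A window runs from 250 bases before to 50 bases after an annotated start (RefSeq, GRCh38.p14), and 7 of the 10 genes had 11 windows in all, with none for GNAQ, PLCB4 or BAP1. Both strands were searched for CATGTG and CACGTG, the E-boxes that factors of the MITF family bind, and for TGANTCA (AP-1) and TGACGTCA (CRE), a choice made after the values were seen. CATGTG or its complement CACATG occurs in 11.1% of all 35116 windows, and CACGTG in 7.26%. Of the 4 RASGRP3 windows, the windows at chr2:33436098-33436397 and chr2:33476399-33476698 (plus strand) hold 1 such match each, in capitals below.
RASGRP3 window 1: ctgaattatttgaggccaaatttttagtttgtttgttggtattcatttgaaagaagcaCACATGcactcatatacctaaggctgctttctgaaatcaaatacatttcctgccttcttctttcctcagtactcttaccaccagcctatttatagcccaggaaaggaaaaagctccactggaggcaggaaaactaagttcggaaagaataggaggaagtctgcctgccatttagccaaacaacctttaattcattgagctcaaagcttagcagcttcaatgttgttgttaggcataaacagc
RASGRP3 window 3: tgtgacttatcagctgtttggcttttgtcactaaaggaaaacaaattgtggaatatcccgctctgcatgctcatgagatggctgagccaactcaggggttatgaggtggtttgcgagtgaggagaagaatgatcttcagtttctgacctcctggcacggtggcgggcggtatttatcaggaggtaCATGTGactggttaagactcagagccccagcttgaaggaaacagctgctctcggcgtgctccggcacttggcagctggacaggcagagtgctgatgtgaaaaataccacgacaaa
The remaining pair of RASGRP3 windows holds neither E-box. SF3B1, which was higher in MEL290, has CACGTG and no CATGTG in its pair of overlapping windows. No window of the 7 genes holds TGANTCA (7.71% of all windows) or TGACGTCA (1.85%). A match is a description of the letters only, and gene-level FPKM does not tell which of the starts was used.

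TRIO encodes the exchange factor that activates Rac downstream of the Gq alpha subunits (chr5:14143342-14532128, plus strand). It was at 12.2 and 12.4 FPKM in shCtrl, 10.4 and 11.9 in shA3B, 54.6 and 44.2 in NC, and 47.9 and 51.9 in A3B OE libraries. MEL290 was higher in every library, 4.02 times between the control means (log2 fold change 1.91, SE 0.13, limma adjusted p = 8.8e-05). Its close relative KALRN moved the same way, from 1.57 ± 0.519 to 7.49 ± 0.994 FPKM (n = 2 each, 1.73, limma adjusted p = 0.00052). The share of TRIO in their sum, 88.6% ± 3.74 in 92.1 and 87.3% ± 1.64 in MEL290 (n = 4 each), was therefore the family share of the 5 that did not pass (exact permutation p = 0.57).

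BAP1 encodes the deubiquitinase that removes ubiquitin from histone H2A, and its loss marks metastasizing uveal melanoma (chr3:52401008-52410008, minus strand). It was at 41.3 and 55.5 FPKM in shCtrl, 45.4 and 51.6 in shA3B, 22.3 and 22.3 in NC, and 22.8 and 23.7 in A3B OE libraries. Its messenger RNA was present in all 8 libraries and lower in all of MEL290, with a log2 fold change of -1.07 between the controls (SE 0.15, limma adjusted p = 0.0016), or 2.17 times in the means. A list of 12 genes held BAP1 itself, partners in its complex and the related deubiquitinase UCHL5 of other complexes. Of these, 9 of the 11 tested were called (81.8%, beside 73% of all genes), 2 higher and 7 lower in MEL290, BAP1 and UCHL5 among the lower. HCFC1, a scaffold that BAP1 binds, was lower (-1.84), and OGT, the sugar transferase of the complex, was higher (1.80, limma adjusted p = 5.4e-05 and 5.1e-05).

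SF3B1 encodes the largest subunit of SF3B, the part of the U2 splicing particle that recognises the branch point (chr2:197388515-197435079, minus strand). It was at 69.0 and 49.5 FPKM in shCtrl, 65.8 and 58.3 in shA3B, 130.7 and 124.5 in NC, and 124.3 and 133.0 in A3B OE libraries. MEL290 was higher throughout, 2.15 times between the control means (log2 fold change 1.11, SE 0.16, limma adjusted p = 0.0016). Of 18 genes listed for the U2 particle and its partners, SF3B1 included, 13 were called (72.2%, beside 73% of all genes). Of these, 2 were higher and 11 lower in MEL290 (39.3% of all genes were lower). The median log2 fold change of the list was -0.62 beside -0.08 over all genes. PUF60, which helps U2 bind the branch region, was lower in MEL290 (-1.91, limma adjusted p = 1.5e-05), as was SF3B3, a subunit of the same SF3B core, at 142.0 ± 13.5 FPKM in shCtrl and 54.0 ± 1.74 in NC (n = 2 each, -1.37, limma adjusted p = 9.6e-05).

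EIF1AX encodes the initiation factor eIF1A, which helps the ribosome scan to the start codon (chrX:20124525-20141838, minus strand). It was at 45.7 and 43.0 FPKM in shCtrl, 44.9 and 51.7 in shA3B, 31.3 and 34.2 in NC, and 28.5 and 29.7 in A3B OE libraries. This was the smallest line difference of the 9 between the controls, at -0.42 (SE 0.10, limma adjusted p = 0.0096), and 92.1 was higher in every library. The call was lost without NC replicate 1 (adjusted p = 0.075). Between the shA3B and A3B OE libraries it was -0.71 (SE 0.11, limma adjusted p = 0.0018). The gene has near-identical copies, so its reads may be divided between them. EIF5B, which joins the ribosomal subunits, rose from 3.97 ± 0.265 FPKM in shCtrl to 34.5 ± 0.135 in NC (n = 2 each, 2.84, limma adjusted p = 1.6e-05), and of the 18 initiation genes 10 were called (55.6%, beside 73% of all genes), 4 higher and 6 lower in MEL290.

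The order of the 10 genes within a line differed as well. FPKM is per length, so levels of different genes may be set side by side. In shCtrl libraries the order of the means was RASGRP3, SF3B1, BAP1, EIF1AX, GNA11, GNAQ, TRIO, PRKCE, PLCB4 and CYSLTR2. RASGRP3 overlapped SF3B1, SF3B1 overlapped BAP1, BAP1 overlapped EIF1AX and GNAQ overlapped TRIO, so those neighbours were not apart. In NC libraries the order was SF3B1, PLCB4, TRIO, EIF1AX, GNAQ, BAP1, GNA11, PRKCE, RASGRP3 and CYSLTR2, with no overlap between neighbours. PLCB4 had a higher mean than 43.4% of the symbols in shCtrl and 96.8% in NC, and RASGRP3 than 92.8% and 52.7%.

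To see whether a gene moved with its part of the chromosome, its change was set beside the median of the tested genes within 5 megabases on either side, a distance chosen after the values were seen. PLCB4 (5.81) lay among 25 neighbours with a median log2 fold change of -0.62, and RASGRP3 (-3.65) among 35 with a median of 0.08. TRIO (1.91) had 15 neighbours with a median of 0.41, and BAP1 (-1.07) had 119 with a median of 0.22. The changes of these 4 genes were larger than, or opposite to, the medians around them. GNA11 (-0.80) was smaller in size than the median of its 166 neighbours (-0.96), with the same sign. GNAQ (0.91) was larger than that of its 14 (0.65), with the same sign. The changes of the 3 remaining genes were also larger in size than, or opposite in sign to, their medians. These were SF3B1 (1.11, neighbours 0.45), PRKCE (-0.53, neighbours 0.10) and EIF1AX (-0.42, neighbours -0.24). The spread of the neighbours is not given, so a median alone cannot tell whether a gene moved with its region. Copy number was not measured, and its part in these values was not tested.

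The rest of the pathway, in lists of 141 genes that hold the 10, also differed between the control libraries, with 94 of 122 tested genes called (77%, beside 73% of all genes), 36 higher and 58 lower in MEL290. Of the Gq alpha genes and their regulators 8 of 9 tested were called, 2 higher and 6 lower. RGS4, a GTPase-activating protein that shuts off alpha subunits, was listed at 0 in both shCtrl libraries and stood at 43.3 and 29.2 FPKM in NC (limma adjusted p = 1.6e-05). Its relatives RGS20 and RGS2 were lower in MEL290, by -3.27 and -2.66 on the log2 scale (limma adjusted p = 1.8e-05 and 5.5e-05). RGS3 and RGS19, named after their values were seen, were also lower in MEL290 (-0.88 and -1.59, limma adjusted p = 0.0054 and 0.00049) but were measured in both lines, at 62.3 and 13.8 FPKM in shCtrl and 33.0 and 3.92 FPKM in NC.

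Among receptors and leukotriene genes 8 of 8 tested were called, 4 higher and 4 lower. EDNRB, the Gq-coupled endothelin receptor of melanocytes, was at 44.5 and 43.3 FPKM in shCtrl and listed at 0 in all MEL290 libraries. HRH1, a histamine receptor, was listed at 0 in 92.1 and stood at 3.31 and 2.84 FPKM in NC (limma adjusted p = 4.7e-05). Of the 17 phospholipase and second messenger genes 13 were called, 7 higher and 6 lower. DGKA, a kinase that removes the diacylglycerol on which PRKCE and RASGRP3 depend, rose from 2.60 and 2.87 FPKM in shCtrl to 39.5 and 45.1 FPKM in NC (3.53, limma adjusted p = 1.2e-05). The plot of the pathway lists places each of the 9 genes among its list.

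**Figure D4:**
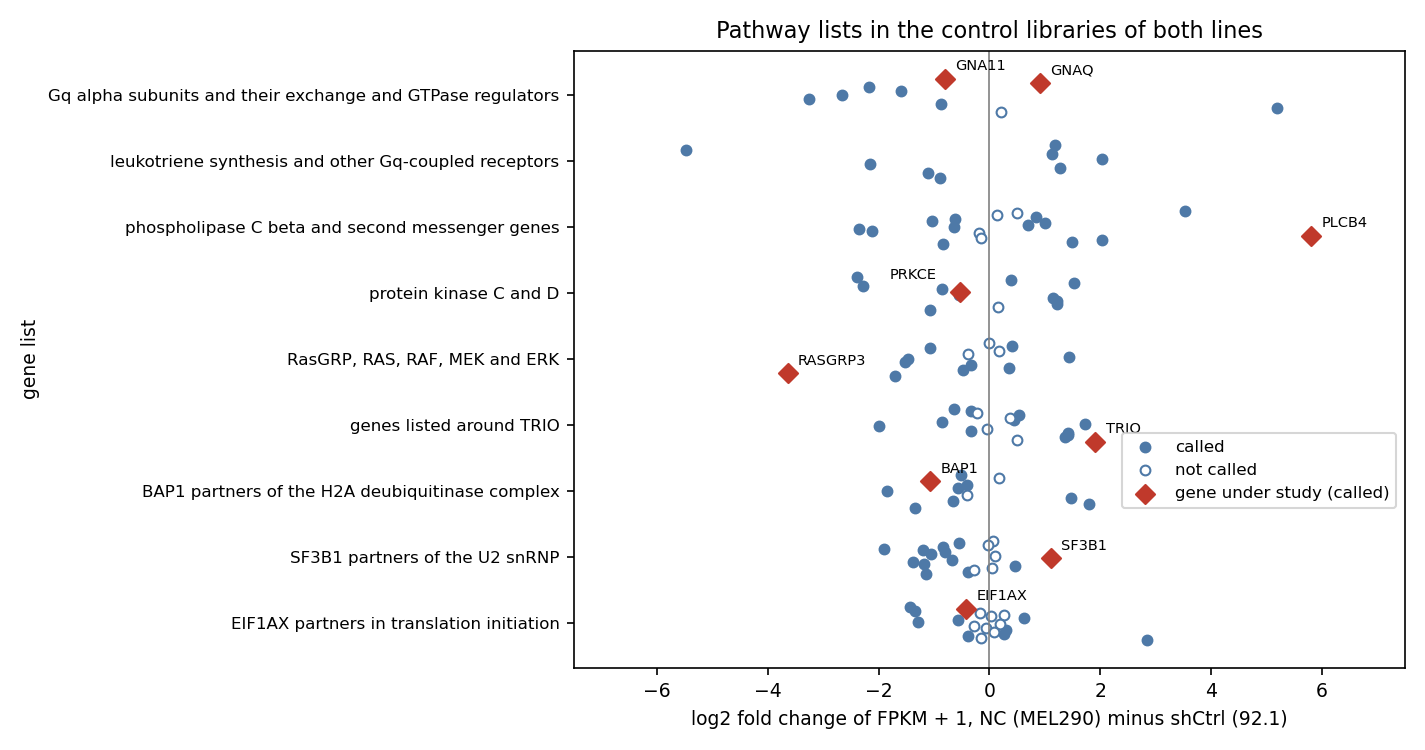
Log2 fold change of FPKM + 1 between the control libraries (MEL290 minus 92.1) of each tested gene of 9 pathway lists, filled where the adjusted p was under 0.05, with the genes under study as red diamonds. PLCB4 (5.81) and RASGRP3 (-3.65) stand at the ends of their lists, and SF3B1 (1.11) lies to the right of a list of which 11 genes are lower and 2 higher in MEL290.

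Of the protein kinase C and D list 11 of 12 tested genes were called, 5 higher and 6 lower, and MARCKS, the classic protein kinase C substrate, was lower in MEL290 (46.6 ± 0.196 against 8.06 ± 0.741 FPKM, n = 2 each, -2.39, limma adjusted p = 2.4e-05). Around RASGRP3, 10 of 13 tested RAS, RAF, MEK and ERK genes were called, 3 higher and 7 lower. SOS1, the exchange factor used by growth factor receptors, was lower in MEL290 (-1.70, limma adjusted p = 0.00047), as was MAP2K2 (-1.47), which encodes a form of MEK. MAP2K1, the other MEK gene, was higher in MEL290 (1.43, limma adjusted p = 0.00055). Of the 16 genes listed around TRIO 12 were called, 7 higher and 5 lower.

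A3B depletion in 92.1 did not move any of the 10 genes past the test. Of 11605 genes tested 1 was called (0.00862%), and 0 of the 9 genes tested was called by limma, with 0 of 9 also at an unadjusted p under 0.05 against 336 of all genes. The log2 fold changes ran from -0.13 for TRIO to 0.23 for PLCB4, with a median of 0.06. TRIO was the gene whose groups did not overlap, against 28.6% of all genes. GNAQ went from a mean of 12.9 ± 4.28 to 13.4 ± 4.28 FPKM, RASGRP3 from 60.1 ± 7.53 to 63.5 ± 6.93 FPKM and BAP1 from 48.4 ± 10.0 to 48.5 ± 4.33 FPKM (n = 2 each). With 2 libraries a group, a change smaller than these spreads was not detectable, and a larger change could also go uncalled. RGS2, a regulator of Gq alpha subunits, went from 10.6 ± 1.81 to 15.7 ± 0.239 FPKM (n = 2 each) without overlap and was not called. The 1 gene called was A3B itself, at a log2 fold change of -3.47. None of the 118 tested genes of the pathway lists was called, and 2 had an unadjusted p under 0.05.

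A3B overexpression in MEL290 called 17.8% of 11611 genes (10.3% higher and 7.49% lower), and 1 of the 9 genes tested. RASGRP3 fell from 4.54 and 3.26 FPKM in NC to 0.570 and 1.60 FPKM in A3B OE libraries, 3.60 times in the means (log2 fold change -1.27, SE 0.27, limma adjusted p = 0.027), the 138th largest absolute change of those tested. The groups did not overlap, but the A3B OE libraries themselves differed 2.80 times, and 1 of them was under 1 FPKM. The call was lost without the filter on low FPKM (adjusted p = 0.12) and without A3B OE replicate 1 (log2 fold change -0.90, adjusted p = 0.091), and it held without A3B OE replicate 2 (-1.63, adjusted p = 0.036, 6.85 times in the means). Where 1 FPKM was asked of every library the gene was not tested. The epithelial markers tested, KRT8 and KRT18, fell in the same comparison, from a summed list level of between 2547 and 2581 FPKM to between 1679 and 1897 FPKM, while 0 of 4 melanocyte markers tested was called. The part of this in the value of RASGRP3 was not tested.

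The other 8 genes were not called in MEL290. The groups did not overlap for PLCB4, PRKCE, RASGRP3, BAP1 and EIF1AX, 5 of 9 against 61.3% of all genes. PRKCE was lower by -0.37 (SE 0.15, limma adjusted p = 0.14), EIF1AX by -0.17 (adjusted p = 0.25) and PLCB4 by -0.14 (adjusted p = 0.19), and BAP1 was higher by 0.06 (adjusted p = 0.69). GNAQ, GNA11, TRIO and SF3B1 had log2 fold changes between 0.00 and 0.02.

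**Figure D5:**
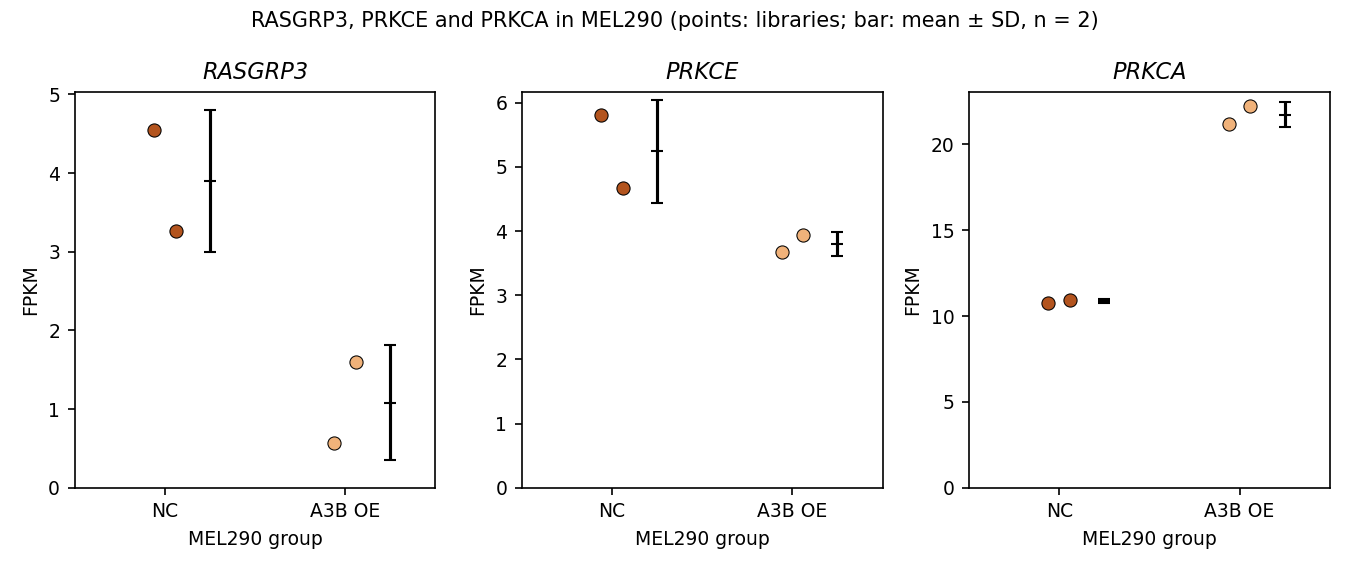
FPKM of RASGRP3, PRKCE and PRKCA in the 2 NC and 2 A3B OE libraries of MEL290 (points), with the mean and SD of each group (bar), each panel on its own linear axis from 0. RASGRP3 and PRKCE are lower and PRKCA is higher in A3B OE libraries without overlap, and the adjusted p was 0.027, 0.14 and 0.0036.

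Of the 115 tested genes of the pathway lists 14 were called with A3B overexpression, RASGRP3 among them, 10 higher and 4 lower, which is 12.2% beside 17.8% of all genes. PRKCA rose from 10.8 and 10.9 FPKM to 21.2 and 22.2 FPKM (log2 fold change 0.94, SE 0.10, limma adjusted p = 0.0036), as the plot of 3 genes in MEL290 shows, while PRKCZ fell by 0.41 (adjusted p = 0.04). F2R, the Gq-coupled thrombin receptor, rose from 40.8 and 41.0 FPKM to 98.1 and 106.3 FPKM (1.30, SE 0.08, limma adjusted p = 0.0012). RGS4 rose from 43.3 and 29.2 to 81.8 and 88.3 FPKM (1.23, limma adjusted p = 0.0087), and DGKA fell by 0.48 (adjusted p = 0.021). Of the 18 genes listed for the U2 particle and its partners, 3 were called higher (16.7%, near the 17.8% of all genes). They were U2AF2 (0.54), SF3B3 (0.53) and SF3B2 (0.27), with limma adjusted p of 0.0084, 0.012 and 0.049, beside SF3B1 at 0.01 (adjusted p = 0.93).

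The difference between the effects of A3B in the lines, tested over all 8 libraries, was called for 4.4% of 12697 genes and for 0 of the 9 by limma, with 1 of 9 (RASGRP3) and 2531 of all genes at an unadjusted p under 0.05. For RASGRP3 the effect in MEL290 less that in 92.1 was -1.35 (SE 0.34, limma adjusted p = 0.068), which is also the gap between its 2 line comparisons. A3B was raised in MEL290 and lowered in 92.1, so a gene that follows A3B alike in both lines counts as different in this contrast. A3B itself stood at 6.55. The contrast therefore cannot tell whether the lines answer A3B alike. The fall of RASGRP3 with A3B raised in MEL290 was not shown to differ from its log2 fold change of 0.08 with A3B lowered in 92.1. The A3B comparisons and the control line comparison share their control libraries.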

How the data were processed

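RNA from 8 libraries (4 groups of 2) was sequenced as paired reads. Per the methods, the authors aligned reads to GRCh38 with STAR and deposited FPKM per gene from Cufflinks with Ensembl genes; no read counts were used here, so no count test was run. FPKM were tested as log2(FPKM + 1) with limma 3.58.1 in R 4.3.3 (trended variance, Benjamini-Hochberg, threshold 0.05) on the 4 libraries of a comparison, keeping genes at 1 FPKM or more in at least 2 of them. Fold changes on this scale understate those of low genes. Between lines they are coded MEL290 minus 92.1. Family shares were compared by exact two-sided permutation over libraries, with the control and A3B-changed libraries of a line pooled. The 10 genes and all lists were chosen with earlier results of these data known. Named genes were the 10, their families and, of each list and comparison, up to 3 called genes with the largest change, no overlap and a mean of at least 1 FPKM. Positions are from GENCODE 44 (GRCh38). Depth was estimated from steps between low FPKM values, a rough measure chosen after seeing the data. Some items of the pathway lists are not reported here. The code was tested on simulated data. Alternatives tried were other scaling, filters, pseudocount, variance trend, a fold minimum, 1 fit of all 8 libraries, a replicate block and leaving out each library.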

Additional observations from a re-analysis of the deposited data

How the results depend on the processing

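Depth and 2 libraries a group limit what could be called for genes near 1 FPKM, such as RASGRP3 in MEL290 and PLCB4 in 92.1. The replicate numbers were not shown to pair the libraries: deviations of same-numbered libraries correlated by 0.193 in 92.1 and -0.0295 in MEL290 (2 pairs each). With a replicate block, A3B depletion called 37 genes, the difference of effects called 223, and RASGRP3 in MEL290 had an adjusted p of 0.048. A3B depletion called 1 gene, but 2 without the trend, 0 without the filter and 2 to 9 with a library left out. A3B overexpression called 2065, but 314 with a minimum absolute log2 fold change of 1, 915 without the filter and 809 to 1979 with a library left out (888 and 809 without either of the A3B OE libraries). Among the 10 genes it called 1, but 0 with 1 FPKM in every library (RASGRP3 not tested), 0 without the filter and 0 to 1 with a library left out. With the fold minimum the lines differed in 4959 genes (controls) and 4658 (perturbed), and in 5 of the 10 genes in each. The difference of effects called 559, but 287 with the fold minimum, 328 with 1 FPKM in every library and 36 to 286 with a library left out, the least without A3B OE replicate 1. The library left alone is assumed to vary like the others. The log2 change of GNAQ in MEL290 turned to -0.0037 with quantile normalization and -0.0045 with upper quartile scaling. With a library left out, values not called changed sign within these ranges. In 92.1 they were -0.27 to 0.37 for GNAQ, -0.13 to 0.055 for GNA11, -0.10 to 0.56 for PLCB4, -0.29 to 0.41 for PRKCE, -0.0483 to 0.20 for RASGRP3, -0.19 to 0.22 for BAP1 and -0.15 to 0.32 for SF3B1. In MEL290 they were -0.0941 to 0.10 for GNAQ, -0.0015 to 0.0459 for GNA11, -0.13 to 0.17 for TRIO and -0.0375 to 0.0593 for SF3B1. For the difference of effects they were -0.37 to 0.27 for GNAQ, -0.0328 to 0.15 for GNA11, -0.16 to 0.25 for BAP1 and -0.31 to 0.16 for SF3B1. The causes were not tested. Of the values of single genes under the other settings, 372 kept their direction and side of the threshold, 16 lost the call (8 of them to the fold minimum) and 2 changed sign.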
